A study of Rattus norvegicus with 8 samples.

Results

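The genes described here are 10 members of the bone morphogenetic protein (BMP) pathway in the rat carotid artery: the ligands Bmp2, Bmp4 and Bmp6, the receptor Bmpr2, the extracellular antagonists and modulators Grem1, Nog and Bmper, and the target genes Id1, Id2 and Id3. They were found by matching these symbols, ignoring case, to the gene column of a read count table, which gave 10 of its 37209 genes. The table came from mRNA sequencing of 8 carotid arteries of male Sprague-Dawley rats. In the injury group, 4 left carotid arteries were harvested 2 weeks after intimal injury with a balloon catheter, and in the control group, 4 undamaged right carotid arteries served as self-controls. The age of the animals and the cells within each sampled piece were not given in the sources used here. Side and injury cannot be told apart, because each injured artery was a left one and each control a right one.

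BMPs are secreted ligands of the TGF-β superfamily. They bind a complex of type I receptors (Bmpr1a, Bmpr1b, Acvr1, Acvrl1) and type II receptors (Bmpr2, Acvr2a, Acvr2b), which phosphorylates SMAD1, SMAD5 and SMAD9. These SMADs enter the nucleus with SMAD4 and switch on target genes, the ID genes among the most direct. ID proteins lack a DNA-binding domain and hold E proteins away from DNA, while antagonists such as gremlin and noggin bind the ligands outside the cell. In the vessel wall the pathway is known for its roles in endothelial cells, in smooth muscle cell differentiation and in vascular calcification, and loss-of-function mutations of BMPR2 underlie heritable pulmonary arterial hypertension.

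Upstream sequences are shown for Bmp4, Bmp6 and Bmper, because these 3 members were the ones called differentially expressed below. Each is the 250 bases before the annotated start in RefSeq's annotation of GRCr8, written 5′ to 3′ on the gene's strand, with matches to GGCGCC or CANNTG in capitals. GGCGCC is a GC-rich element known to bind SMAD1 and SMAD5, and CANNTG is the E-box bound by basic helix-loop-helix factors such as the E proteins. Bmp4 lies at chr15:22101934-22102183 (minus strand), Bmp6 at chr17:26675262-26675511 (minus strand) and Bmper at chr8:30007916-30008165 (plus strand).
Bmp4: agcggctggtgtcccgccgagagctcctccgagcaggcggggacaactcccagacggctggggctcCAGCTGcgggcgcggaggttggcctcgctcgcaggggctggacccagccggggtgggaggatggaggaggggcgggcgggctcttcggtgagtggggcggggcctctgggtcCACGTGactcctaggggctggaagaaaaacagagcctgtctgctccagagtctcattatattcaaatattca
Bmp6: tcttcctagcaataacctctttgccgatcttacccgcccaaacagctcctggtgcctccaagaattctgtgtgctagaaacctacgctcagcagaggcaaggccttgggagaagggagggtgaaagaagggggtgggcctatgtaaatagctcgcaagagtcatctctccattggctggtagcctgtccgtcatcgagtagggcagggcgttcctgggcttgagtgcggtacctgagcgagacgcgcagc
Bmper: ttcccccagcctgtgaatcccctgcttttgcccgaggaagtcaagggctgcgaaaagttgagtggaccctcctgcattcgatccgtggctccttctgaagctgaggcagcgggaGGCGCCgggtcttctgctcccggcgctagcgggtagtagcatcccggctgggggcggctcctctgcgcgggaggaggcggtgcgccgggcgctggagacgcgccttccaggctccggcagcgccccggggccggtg
Upstream sequences were found for 9 of the 10 members, all except Bmp2. Both motifs are their own reverse complement, so a search of the gene's strand covered both strands, and their matches did not overlap. GGCGCC was present upstream of 3 members, Grem1, Nog and Bmper, and of 9.24% of all 27457 upstream sequences of the same length. In Bmper its match lay 136 bases before the start. CANNTG was present upstream of 3 members, Bmp4 with 2 matches and Id1 and Id2 with 1 each, and of 65.2% of all upstream sequences. No match to either motif was found in the window of Bmp6, Bmpr2 or Id3. A match describes letters in a window and was not tested as a binding site. The genome build behind the counts was not given in the sources used here, so these coordinates apply to the sequences alone.

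The total count was 13470754 to 15276952 per control artery and 11459632 to 16658089 per injured artery. Counts were scaled to CPM, the number of counts of a gene in a library of common size, with TMM factors. By library totals, a count of 3 corresponded to 0.18 to 0.262 CPM, a floor that covers counting error only. Control artery 4 stood apart: across genes its log2 CPM correlated with the other controls at 0.830 to 0.852, while the highest correlation among controls was 0.978. The summed level of 8 sympathetic neuron markers (Th, Dbh and Phox2a lead the list) was 7019 CPM in control artery 4 and at most 4.99 CPM in the other controls. The same sum was 1055 CPM in injured artery 3, 87.0 CPM in injured artery 1 and at most 1.96 CPM in the other injured arteries. The extraction text of the labels names brain tissue, and of 6 brain markers, Slc17a7, Neurod6, Gad2, Gad1 and Rbfox3 had at most 8, 2, 2, 27 and 34 counts in any library. Camk2a had 284 counts in control artery 4, 90 in injured artery 3 and at most 44 elsewhere. Contractile smooth muscle markers were abundant in all 8 libraries, at 11541 CPM or more in sum.

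Among the 10 members, the ligands Bmp4 and Bmp6 were downregulated and the secreted modulator Bmper was upregulated in the injured arteries, the last with a call that depended on the set of arteries and on the covariates. The ID target genes, Bmpr2, Bmp2, Grem1 and Nog did not pass the test. Expression was compared with edgeR's quasi-likelihood test over 14359 genes with enough counts, and a gene was called at a false discovery rate (FDR) under 0.05 with a fold change above 2. All 10 members had enough counts for the test. Thus 1 of 10 members was upregulated and 2 of 10 were downregulated, against 8.31% and 2.57% of all genes tested. The groups did not overlap for 1 member that was higher and 2 that were lower after injury, against 14.2% and 9.51% of all genes tested. The median log2 fold change of the members was -0.20, beside -0.06 over all genes tested. With each artery left out in turn, 2 members were downregulated in all 8 fits, while 1 was upregulated in 3 fits (without control artery 1, control artery 4 or injured artery 3) and 0 in the other 5, which are given with Bmper below.

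**Figure D1:**
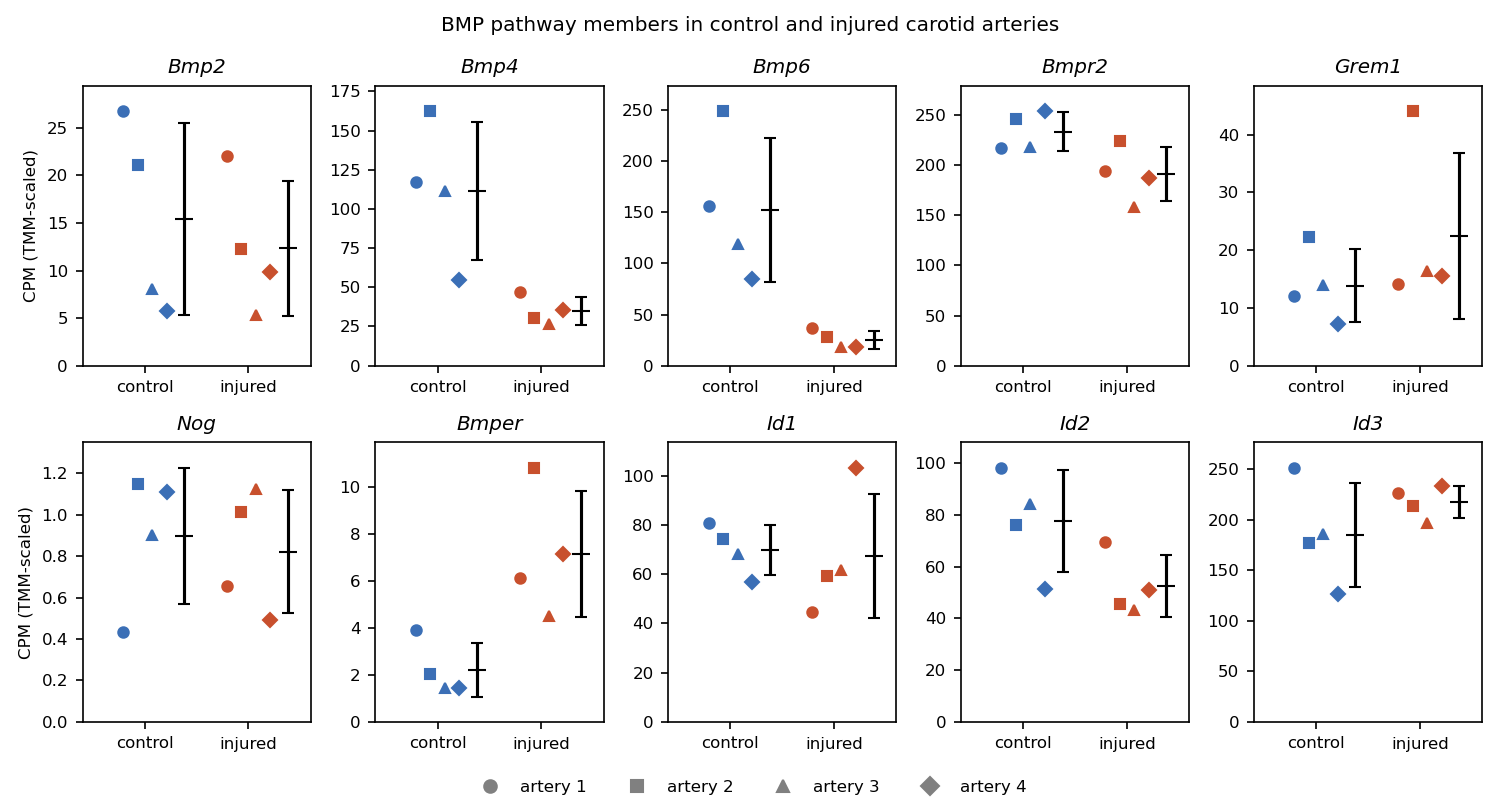
TMM-scaled CPM (linear axis from 0) of each of the 10 members in the 4 control (blue) and 4 injured (red) carotid arteries; marker shape gives the artery number, and the black dash and bar give the mean and SD of each group. All injured arteries lay below all controls for Bmp4 and Bmp6 and above all controls for Bmper, and the groups overlapped for the other 7 genes.

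Bmp6, a ligand known in endothelial cells and in the control of iron through hepcidin, had the largest difference of the 10 members. Its level in control arteries 1 to 4 was 157, 249, 119 and 84.7 CPM, and in injured arteries 1 to 4 it was 36.7, 28.1, 18.1 and 18.5 CPM. Every injured artery lay below the lowest control, which was artery 4, and injured arteries 3 and 4 were the lowest. The group means were 152 ± 70.7 CPM (SD, n = 4) and 25.3 ± 8.88 CPM (SD, n = 4). The log2 fold change was -2.58 (standard error, SE, 0.38), and the edgeR test gave it an adjusted p of 0.00345. The exact permutation test of log2 CPM over all 70 relabellings, two-sided and without regard to a possible pairing, gave p = 0.0286, the smallest that 4 arteries against 4 allow. This value is unadjusted and restates that the groups did not overlap. Of all genes tested, 14.2% did not overlap as higher and 9.51% as lower. Bmp6 was called in all 8 fits that each left out 1 artery, with log2 fold changes between -2.82 and -2.25.

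Bmp4, a ligand that drives ventral and vascular development and that is made by endothelial cells under disturbed flow, was lower as well. It was at 117, 162, 111 and 54.6 CPM in control arteries 1 to 4 and at 46.8, 30.1, 26.8 and 35.8 CPM in injured arteries 1 to 4. The groups did not overlap, though control artery 4 lay close to injured artery 1. The means were 111 ± 44.2 CPM (SD, n = 4) and 34.9 ± 8.80 CPM (SD, n = 4), a 3.19-fold lower level after injury. The edgeR fit put Bmp4 at a log2 fold change of -1.67 (SE 0.33, adjusted p = 0.0110), and the exact permutation test gave p = 0.0286. The permutation value, unadjusted, restates that the groups did not overlap. Leaving out each artery in turn gave log2 fold changes from -1.91, without control artery 4, to -1.44, with Bmp4 called in all 8 fits.

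Bmp2, a ligand known for inducing bone formation and for its part in vascular calcification, showed no such separation. Its values were 26.7, 21.1, 8.11 and 5.77 CPM in control arteries 1 to 4 and 22.1, 12.3, 5.28 and 9.82 CPM in injured arteries 1 to 4. Arteries 1 and 2 were the highest of both groups, and the spread within each group, more than 4-fold, exceeded the difference between the groups. Bmp2 had a log2 fold change of -0.32 (SE 0.58, 95% confidence interval -1.65 to 1.01, edgeR adjusted p = 0.745), and without control artery 1 it was 0.08. The interval held 2-fold changes in both directions.

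Of the 14 ligands in the pathway list, 8 had enough counts for the test. Beside Bmp4 and Bmp6, Gdf7 was downregulated, a BMP-type ligand known from the dorsal neural tube and tendon. Gdf7 was at 3.46, 3.44, 2.43 and 1.53 CPM in control arteries 1 to 4 and at 0.538, 0.725, 0.225 and 0.0818 CPM in injured arteries 1 to 4, with 1 to 10 counts behind each injured value. Its log2 fold change was -2.75 (SE 0.57, edgeR adjusted p = 0.0137). Thus 3 of 8 ligands fell and none rose in edgeR's test, against 2.57% and 8.31% of all genes tested. The median log2 fold change of the 8 was -0.96, beside -0.06 over all genes tested. Bmp3, which unlike most BMPs opposes bone formation, was not called with all arteries, at -1.06 (SE 0.49, edgeR adjusted p = 0.182). It was called without control artery 4, at -1.38 (edgeR adjusted p = 0.00862). At an unadjusted p under 0.05, which 16.8% of all genes tested passed as higher and 14.3% as lower, 3 ligands were lower and 1 was higher. The higher ligand was Bmp5, at a log2 fold change of 1.58 (SE 0.50, edgeR adjusted p = 0.0645), and DESeq2, which called 9.61% of 16652 genes higher and 3.3% lower, called it (adjusted p = 0.0276). Bmp5 was at 0.164 to 1.08 CPM in the controls and 1.31 to 2.47 CPM after injury, and it is named after its values were seen. Bmp10, Bmp15 and Gdf2 had no counts in any library.

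Bmpr2, the type II receptor that is selective for BMPs, was at 217, 246, 218 and 254 CPM in control arteries 1 to 4. In injured arteries 1 to 4 it was at 194, 225, 158 and 187 CPM. Only injured artery 2 lay within the control range, and the spread within each group was under 1.5-fold. For Bmpr2 the log2 fold change was -0.29 (SE 0.13, 95% confidence interval -0.60 to 0.02, edgeR adjusted p = 0.185). The interval excluded a fall of 2-fold or more.

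The receptor that was called was Bmpr1b, the type I receptor with high affinity for GDF5-type ligands in cartilage. Bmpr1b was at 68.4, 77.6, 77.1 and 62.1 CPM in control arteries 1 to 4 and at 23.2, 17.5, 15.6 and 15.4 CPM in injured arteries 1 to 4. The arteries of each group lay close together, and the lowest control was more than 2-fold above the highest injured artery. The fall was 3.98-fold, with a log2 fold change of -1.99 (SE 0.16, edgeR adjusted p = 0.000327), and Bmpr1b was called in all 8 fits that left out 1 artery. Bmpr1a, the broadly expressed type I receptor, is named after its values were seen: it passed the FDR (edgeR adjusted p = 0.0159) with a log2 fold change of -0.84, short of the 2-fold limit. Its range was 96.0 to 167 CPM in the controls and 69.9 to 87.6 CPM after injury, without overlap. Acvrl1, the type I receptor of endothelial cells that binds BMP9 and BMP10, was at 138 to 316 CPM in the controls and 199 to 278 CPM after injury (log2 fold change -0.09, edgeR adjusted p = 0.838). Of 11 receptors and co-receptors tested, 1 was downregulated and none was upregulated by edgeR, against 2.57% and 8.31% of all genes tested. Their median log2 fold change was -0.17. Among these 11, 0 were higher and 2 were lower at an unadjusted p under 0.05, against 16.8% and 14.3% of all genes tested. DESeq2 called Bmpr1b lower and also tested Hjv, which edgeR did not and which it called higher.

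**Figure D2:**
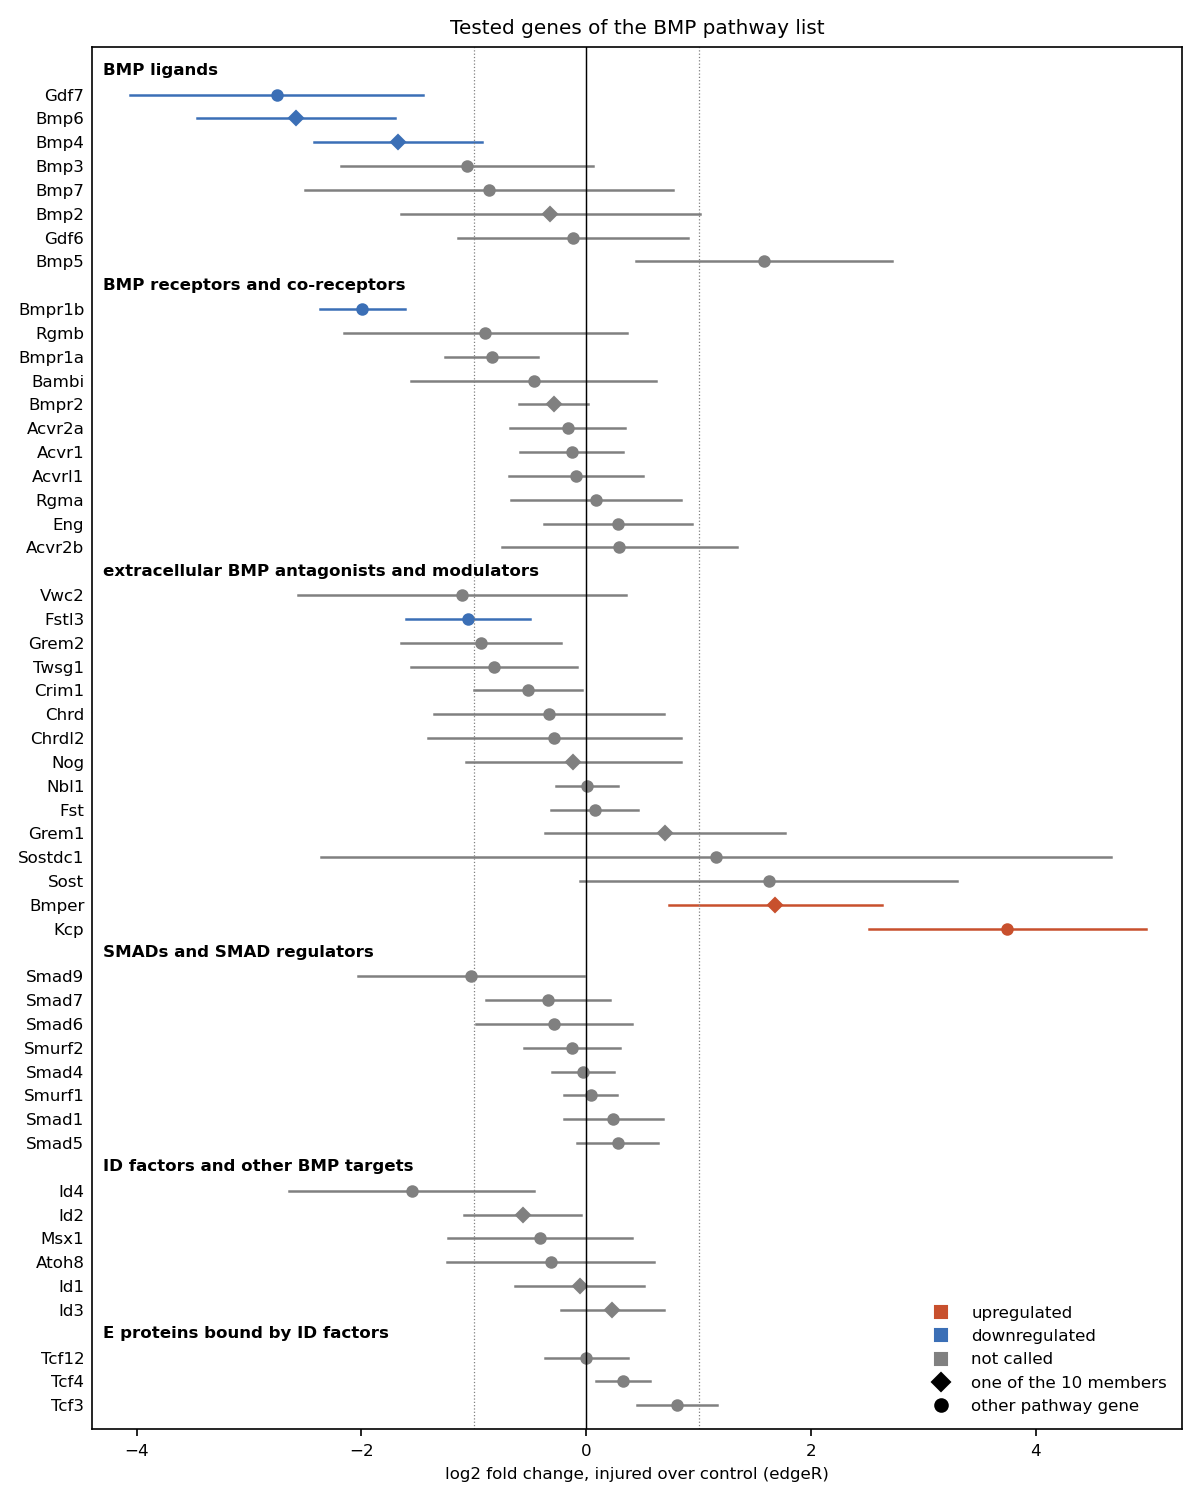
Log2 fold change (injured over control, edgeR) with its 95% confidence interval for the 51 tested genes of the pathway list, grouped by role, with the 10 members as diamonds and the other genes as circles; dotted lines mark a 2-fold change. The 5 downregulated genes (blue) are Gdf7, Bmp6, Bmp4, Bmpr1b and Fstl3, the 2 upregulated genes (red) are the modulators Bmper and Kcp, and the SMADs and ID factors hold none. Of all genes tested, 2.57% were downregulated and 8.31% upregulated.

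Bmper, a secreted protein that binds BMPs and can inhibit or promote their signalling with its level, rose after injury. Its counts were 54, 25, 21 and 21 in control arteries 1 to 4 and 102, 149, 80 and 87 in injured arteries 1 to 4. These corresponded to 3.89, 2.05, 1.46 and 1.46 CPM and to 6.10, 10.8, 4.49 and 7.12 CPM. Injured artery 2 was the highest, and injured artery 3 lay only a little above control artery 1, without overlap between the groups. The mean was 2.21 ± 1.15 CPM (SD, n = 4) in the controls and 7.13 ± 2.68 CPM (SD, n = 4) after injury, and the fitted rise was 3.21-fold. By edgeR, Bmper changed by 1.68 on the log2 scale (SE 0.41, adjusted p = 0.0269), and the exact permutation test gave p = 0.0286. That unadjusted permutation value restates that the groups did not overlap and adds no support to the call. The edgeR call was lost in 5 of the 8 fits that left out 1 artery. The edgeR adjusted p was 0.0765 without control artery 2, 0.0739 without control artery 3, 0.0529 without injured artery 1, 0.0769 without injured artery 2 and 0.0735 without injured artery 4. It was also lost with the replicate number as a block, at a log2 fold change of 1.73 (edgeR adjusted p = 0.0504). Over all 8 fits the log2 fold change stayed between 1.41 and 2.10, and without control artery 4 it was 1.52 (edgeR adjusted p = 0.0311).

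Grem1, which encodes gremlin 1, an antagonist of BMP2 and BMP4, was at 12.1, 22.2, 14.0 and 7.16 CPM in control arteries 1 to 4. Its injured values were 14.2, 44.0, 16.5 and 15.5 CPM. Injured artery 2 was far above the other injured arteries, and these lay within the control range. The log2 fold change of 0.70 (SE 0.46, 95% confidence interval -0.37 to 1.77) did not pass the test (edgeR adjusted p = 0.350), and without injured artery 2 it was 0.15. Nog, which encodes the antagonist noggin, had 6, 14, 13 and 16 counts in control arteries 1 to 4 and 11, 14, 20 and 6 counts after injury. All its values were at or below 1.15 CPM, and the lowest of both groups were alike. Its log2 fold change was -0.12 (SE 0.42, edgeR adjusted p = 0.876), a direction that turned to 0.05 when counts were scaled by library totals alone. No change of Nog was detectable at this depth.

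Of the 18 antagonists and modulators in the list, 15 were tested. In edgeR's test 2 rose and 1 fell, against 8.31% and 2.57% of all genes tested, with a median log2 fold change of -0.12. Kcp, which encodes kielin/chordin-like protein and is related to Bmper through its chordin-type repeats, was the other modulator that rose. It had 3, 1, 11 and 8 counts in control arteries 1 to 4 and 78, 85, 86 and 83 counts in injured arteries 1 to 4, or 0.0820 to 0.762 CPM against 4.67 to 6.79 CPM. The injured arteries were alike, and the lowest of them was more than 6-fold above the highest control. The log2 fold change of Kcp was 3.75 (SE 0.54, edgeR adjusted p = 0.00292), and it was called in all 8 fits that left out 1 artery. Fstl3, which encodes a follistatin-like protein that binds activins, myostatin and some BMPs, fell from 97.0 ± 23.9 CPM in the controls (SD, n = 4) to 46.8 ± 11.5 CPM after injury (SD, n = 4). Its log2 fold change was -1.05 (SE 0.24, edgeR adjusted p = 0.0202), and control artery 4, at 63.0 CPM, lay close to injured artery 4, at 59.4 CPM. Fstl3 was no longer called without control artery 1, 2 or 3 or without injured artery 1 or 2, at log2 fold changes of -1.04, -1.01, -0.95, -0.95 and -0.96 with edgeR adjusted p of 0.0512, 0.0571, 0.0567, 0.0586 and 0.0685. It also fell short of the 2-fold limit with upper-quartile factors, at -0.99, and with library totals, at -0.87. Twsg1, which encodes twisted gastrulation, a partner of chordin, was at 195 to 580 CPM in the controls and 206 to 314 CPM after injury and was not called (log2 fold change -0.82, edgeR adjusted p = 0.123). Without control artery 4 it was called, at -1.07 (edgeR adjusted p = 0.00173).

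The SMADs carry the signal, and the SMURF ligases tag them for degradation. Of these 8 genes edgeR called none, against 8.31% of all genes tested called higher and 2.57% lower. DESeq2 called none of them either, against 9.61% and 3.3% of its 16652 genes. At such shares, no call among 8 genes does not set them apart from other genes. Their median log2 fold change was -0.08. At an unadjusted p under 0.05 in edgeR's test, 0 of them were higher and 1 was lower, against 16.8% and 14.3% of all genes tested. The lower gene was Smad9, which is named after its values were seen. Smad5, a receptor-regulated SMAD, was at 108 ± 21.2 CPM (SD, n = 4) in the controls and 131 ± 8.44 CPM (SD, n = 4) after injury. Smad5 thus had a log2 fold change of 0.28 (SE 0.16, 95% confidence interval -0.08 to 0.64, edgeR adjusted p = 0.269).

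None of the 3 ID members, direct targets of the pathway, passed the test, which called 8.31% of all genes tested higher and 2.57% lower. Id1, the ID gene most often used as a readout of BMP signalling, was at 80.8, 74.1, 68.1 and 56.8 CPM in control arteries 1 to 4 and at 44.7, 59.4, 61.7 and 103 CPM in injured arteries 1 to 4. The controls lay within the range of the injured arteries, of which artery 4 was the highest of all 8. The log2 fold change of Id1 was -0.06 (SE 0.25, 95% confidence interval -0.63 to 0.52, edgeR adjusted p = 0.898), and it turned to 0.13 with library totals and to 0.01 with upper-quartile factors. The interval excluded a 2-fold change in either direction.

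Id3 was at 251, 177, 185 and 126 CPM in control arteries 1 to 4 and at 226, 213, 197 and 234 CPM in injured arteries 1 to 4. The injured arteries lay close together inside the wider control range. Its log2 fold change was 0.23 (SE 0.20, 95% confidence interval -0.23 to 0.69, edgeR adjusted p = 0.471). Id2, an ID gene that also answers to signals other than BMP, was at 98.2, 76.2, 84.1 and 51.4 CPM in the controls and at 69.6, 45.6, 43.1 and 51.1 CPM after injury. Control artery 4 lay among the injured arteries, and the other 3 controls lay above all of them. The log2 fold change of Id2 was -0.56 (SE 0.23, 95% confidence interval -1.09 to -0.04, edgeR adjusted p = 0.133). Without control artery 4 it was -0.72 (edgeR adjusted p = 0.0183), still short of the 2-fold limit.

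Id4, which is no member but belongs to the same family, was at 251, 175, 132 and 58.9 CPM in control arteries 1 to 4 and at 87.6, 51.1, 29.3 and 42.1 CPM in injured arteries 1 to 4. Control artery 4 and injured artery 1 crossed. With all arteries Id4 was not called (log2 fold change -1.55, SE 0.48, edgeR adjusted p = 0.0596). It was called without control artery 4, at -1.83 (adjusted p = 0.00803), and without injured artery 1, at -1.92 (adjusted p = 0.0468), both by edgeR. DESeq2 called it with all arteries, at -1.57 (adjusted p = 0.00441). Of the 6 ID factors and other targets tested, edgeR with all arteries called none, against 8.31% of all genes tested called higher and 2.57% lower. Their median log2 fold change was -0.37. At an unadjusted p under 0.05, 0 of the 6 were higher and 2 were lower, Id2 and Id4, against 16.8% and 14.3% of all genes tested. DESeq2 called Id4 lower and also Msx2, which is not among the 6 because it had too few counts for edgeR. Of the 3 E proteins that ID factors bind, none was called by edgeR or DESeq2. Over all genes, edgeR called 8.31% higher and 2.57% lower, and DESeq2 called 9.61% and 3.3%. In edgeR's test 2 were higher at an unadjusted p under 0.05, against 16.8% of all genes tested. Tcf12 was at 82.6 ± 14.9 CPM (SD, n = 4) and 82.6 ± 10.1 CPM (SD, n = 4), while Tcf3, named after its values were seen, passed the FDR at a log2 fold change of 0.81 (SE 0.15, edgeR adjusted p = 0.0102). The controls had 36.7 to 59.3 CPM of Tcf3 and the injured arteries 73.3 to 91.2 CPM.

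**Figure D3:**
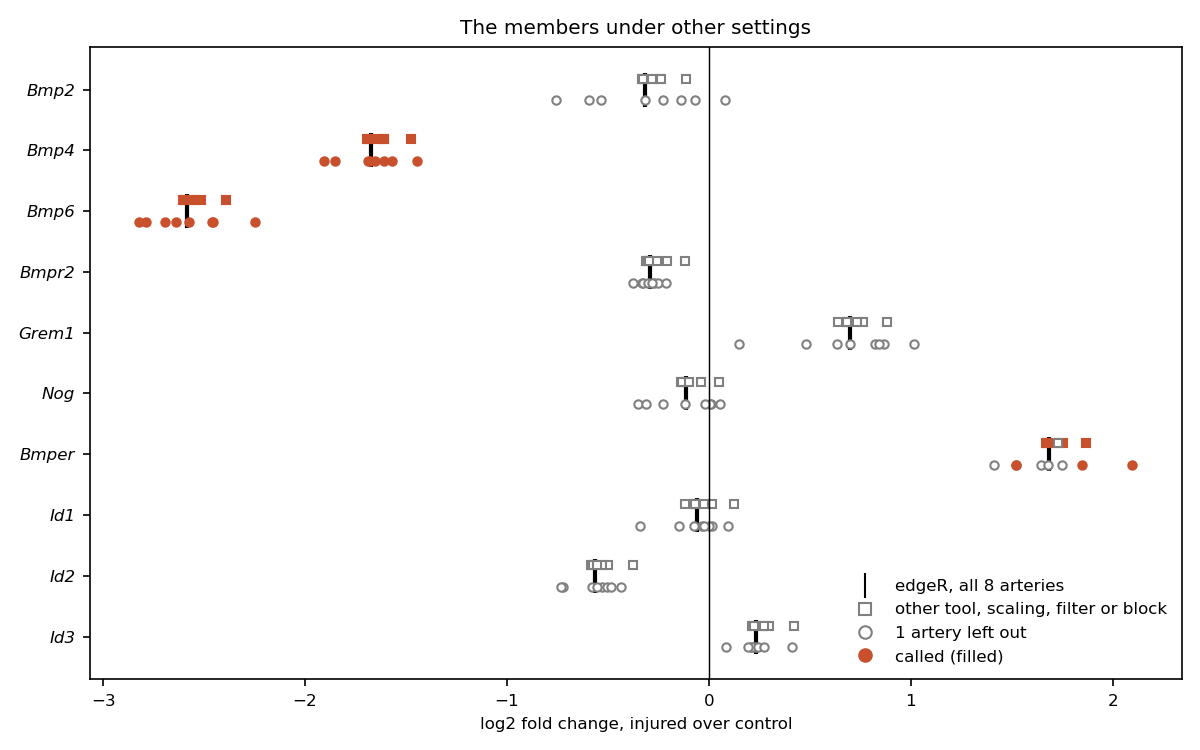
Log2 fold change (injured over control) of each of the 10 members with all 8 arteries (black line), with another tool, scaling, filter or covariate (squares) and with 1 artery left out (circles); filled symbols passed both call criteria. Bmp4 and Bmp6 are filled throughout, Bmper in part, and Bmp2, Nog and Id1 lie on both sides of 0.

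Ratios of counts within 1 artery do not depend on the scaling between libraries. Transcript lengths were not used, so the ratios compare arteries and not the levels of the genes. In all, 10 ratios were computed after the values were seen, so they are given as a description with no test. The ratio of Bmper to Bmp4 counts was 0.0331, 0.0126, 0.0131 and 0.0268 in control arteries 1 to 4 and 0.130, 0.359, 0.168 and 0.199 in injured arteries 1 to 4. The ratio of Grem1 to Bmp4 was 0.103 to 0.137 in the controls, a narrow range, and 0.303 to 1.46 after injury. Both ratios have Bmp4, itself downregulated, as the denominator, and Grem1 did not pass the test. Control artery 4 lay between the other controls in both. The ratio of Bmp6 to Bmp4 was 1.06 to 1.55 in the controls and 0.516 to 0.933 after injury. That of Bmp2 to Bmp4 overlapped, at 0.0728 to 0.227 and 0.197 to 0.471.

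Between receptors, the ratio of Bmpr1b to Bmpr2 was 0.245 to 0.354 in the controls and 0.0779 to 0.120 after injury, and that of Bmpr1b to Bmpr1a was 0.444 to 0.647 and 0.194 to 0.286. Bmpr1b was therefore lower relative to both of these receptors in every injured artery. Between the ID genes, the ratio of Id3 to Id2 was 2.56, 2.33, 2.20 and 2.46 in control arteries 1 to 4 and 3.24, 4.67, 4.57 and 4.58 in injured arteries 1 to 4. The Id3 to Id4 ratio was 1.00 to 2.14 in the controls and 2.58 to 6.72 after injury. Neither overlapped, while Id1 to Id2 and Id3 to Id1 did. Control artery 4, which was the lowest control for Id2 and Id3 alike, had an Id3 to Id2 ratio inside the range of the other controls.

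**Figure D4:**
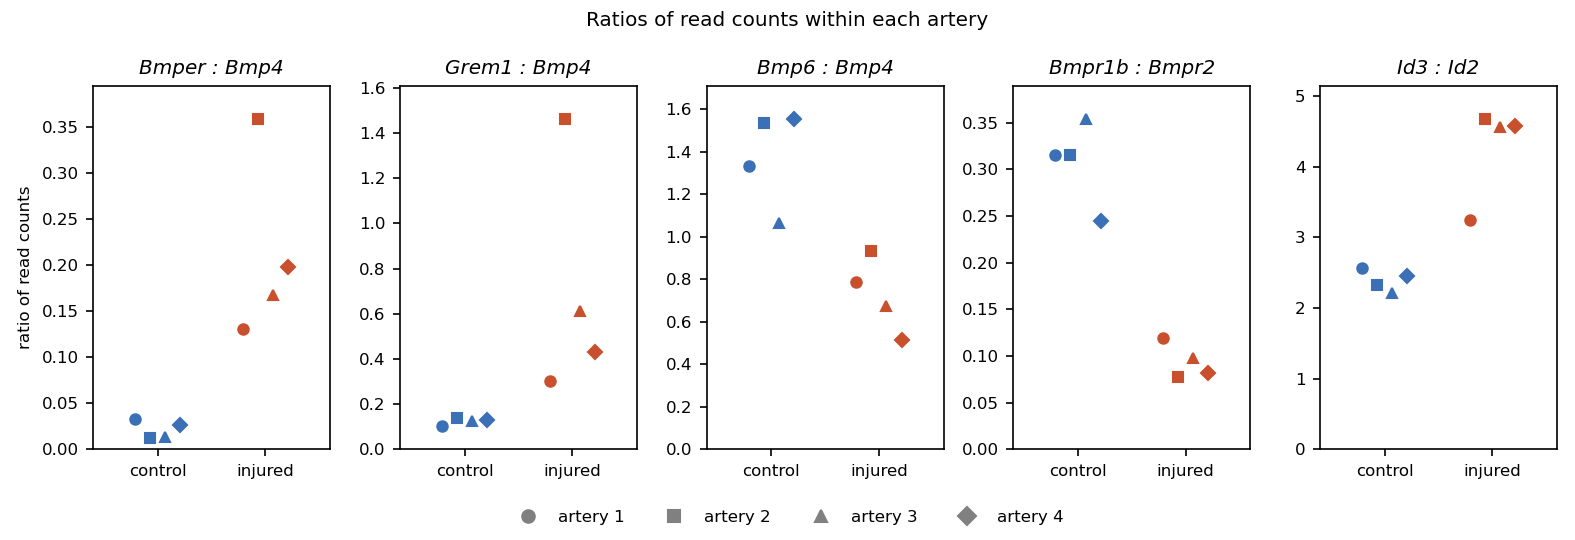
Ratio of raw read counts of gene pairs within each artery (linear axes from 0), for the 4 control (blue) and 4 injured (red) arteries; marker shape gives the artery number. In each of the 5 panels the groups do not overlap, with Bmper to Bmp4 at 0.0126 to 0.0331 in the controls and 0.130 to 0.359 after injury; the pairs were chosen after their values were seen.

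Within each group, the lowest values of the members often fell in the same library. Control artery 4 was the lowest control for 7 of the 10 members, and injured artery 3 was the lowest injured artery for 7 of the 10. Both libraries were also the lowest of their group in the sum of contractile smooth muscle markers, and both carried the sympathetic neuron markers given above. The lowest library was not counted over all genes tested, so these counts do not set the members apart from other genes. Without control artery 4, the log2 fold changes of the 3 called members were -2.79 for Bmp6, -1.91 for Bmp4 and 1.52 for Bmper, and all 3 were called.

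Markers of several cell types moved with injury beside these genes. The summed contractile smooth muscle markers (Acta2, Myh11 and Tagln lead the 10) were at 19069 to 55208 CPM in the controls and 11541 to 18118 CPM after injury, without overlap, and 8 of 10 fell. Macrophage markers (Cd68, Csf1r and Adgre1 lead the list) summed to 206 to 292 CPM in the controls and 1861 to 2762 CPM after injury, and 10 of 11 rose. T cell markers rose in 2 of 7 cases, Cd2 and Cd4, with sums of 19.8 to 41.3 CPM and 129 to 167 CPM. Most of that sum was Cd4, which rat macrophages also express, at up to 31.4 CPM in the controls and 117 to 145 CPM after injury, and the other 6 genes summed to 1.73 to 10.2 CPM and 11.7 to 27.7 CPM. Cd2 and Cd4 are named after their values were seen. All 9 proliferation genes rose, from 11.2 to 20.2 CPM in sum to 92.9 to 144 CPM. Skeletal muscle markers rose in 7 of 9 cases (84.5 to 253 CPM against 304 to 1100 CPM), and cartilage markers rose in 6 and fell in 1 of 8 tested (23.6 to 39.9 CPM against 190 to 712 CPM). Endothelial markers (Pecam1, Cdh5 and Vwf lead the 10) overlapped in sum, at 960.1 to 2494 CPM and 925 to 1325 CPM, with 3 higher and 1 lower. Fibroblast markers overlapped in sum as well, with 1 of 7 higher and 2 lower, as did the sums of adipocyte and Schwann cell markers. Most of the fibroblast sum was Col1a1 and Col3a1, with means of 21306 and 23074 CPM in the controls, and neither was called. The called fibroblast markers went both ways, with log2 fold changes of 2.03 for Dpt, -1.56 for Pi16 and -1.15 for Dcn. These 5 genes are named after their values were seen. The part of all these cell types in the differences of Bmp4, Bmp6, Bmper, Bmpr1b and Kcp was not tested. In such bulk tissue, fewer cells of a type and less RNA per cell cannot be told apart.

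**Figure D5:**
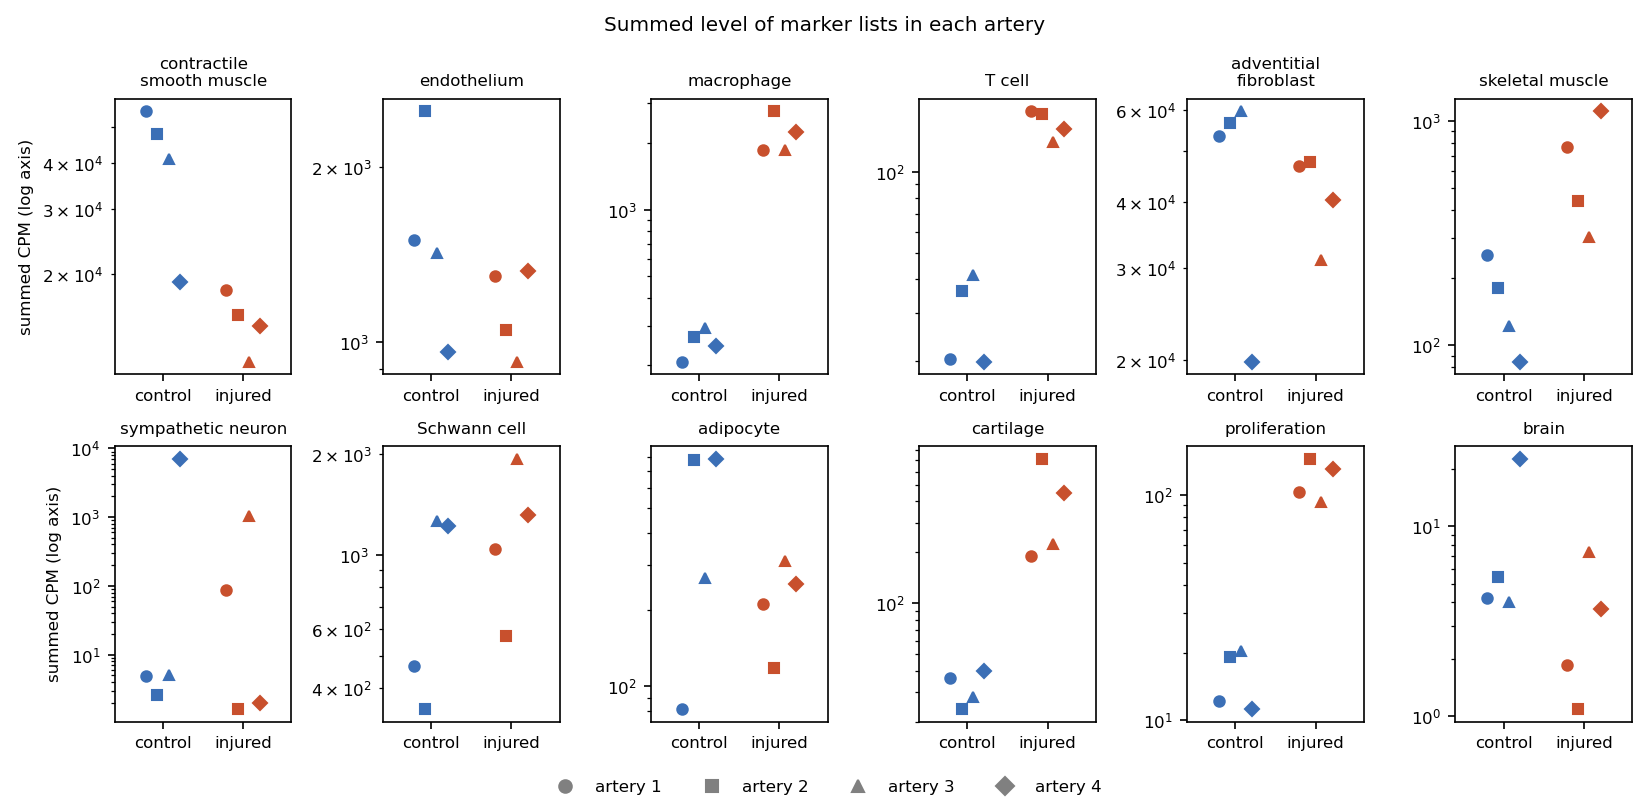
Summed TMM-scaled CPM (log axis) of 12 marker lists in the 4 control (blue) and 4 injured (red) arteries; marker shape gives the artery number. Smooth muscle markers are lower and macrophage, T cell, skeletal muscle, cartilage and proliferation markers are higher in all injured arteries, while the sympathetic sum is highest in control artery 4 (7019 CPM) and injured artery 3 (1055 CPM).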

How the data were processed

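mRNA of 4 injured and 4 control carotid arteries was sequenced. The authors deposited raw read counts per gene symbol, aligned with HISAT2 2.0.4 per the submitters' processing notes. The counter, its strand setting, the genome build and the removal of PCR duplicates were not given in the sources used here, and counts cannot tell overlapping or antisense genes apart. Counts were normalized by TMM and filtered by filterByExpr in edgeR 4.0.16 (R 4.3.3, limma 3.58.1), which left 14359 of 37209 genes, and groups were compared by glmQLFTest without covariates, with Benjamini-Hochberg adjustment over these genes. Calls needed a fold change above 2 and an FDR under 0.05, the criteria the study used. CPM used TMM-scaled library sizes, and a prior count of 2 entered only the log2 CPM. The code was checked on simulated counts. No 2 libraries had identical counts.

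The members and all lists were chosen with earlier results of these data known. Named beside the members were every called gene of the pathway list and, per role, the gene not called with the highest average CPM; others are stated as named after their values were seen. That choice ranked genes by average CPM without transcript lengths, which were not used here. Ratios of counts between genes are likewise not corrected for length, and they do not state which gene has the higher level. As alternatives, DESeq2 1.42.0 replaced edgeR, factors were RLE, upper-quartile or absent (library totals), the filter was dropped or required 10 counts in every artery, calls used the FDR alone, replicate numbers entered as a block, and each artery was left out in turn. The paper states biological replicates for its experiments, but the labels do not say which animal each artery came from. The p-values of the main test set the difference between the groups against the spread between these arteries only, without regard to a possible pairing.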

Additional observations from a re-analysis of the deposited data

Results flagged for a closer look

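Among 4 arteries of a group, 1 far from the other 3 was looked for by Dixon's ratio, the gap to the nearest artery over the whole range of the group, set against its 95% critical value. Of 40 groups examined, 2 exceeded it, and chance alone gives about 2. Injured artery 2 had 44.0 CPM of Grem1, the gremlin 1 gene, against 16.5 CPM in the nearest injured artery (ratio 0.924). The same artery had the highest Bmper level, 10.8 CPM, and the highest cartilage marker sum, 712 CPM. Control artery 4 had 138 CPM of Acvrl1, a type I receptor of endothelial cells, against 294 CPM in the nearest control (ratio 0.873). Without it, the log2 fold change of Acvrl1 was -0.31 (edgeR adjusted p = 0.0950).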

How the results depend on the processing

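Bmp4 and Bmp6 were called downregulated under every alternative run, and 2 members downregulated was the count throughout. Bmp4 came close to the FDR limit, with its highest edgeR adjusted p of 0.0457 under the replicate block. That of Bmp6 was 0.0179, without injured artery 4. The number of members upregulated was 0 or 1 when each artery was left out and 0 with the replicate block, since Bmper then stood at 1.73 (edgeR adjusted p = 0.0504) (range without 1 artery 1.41 to 2.10); DESeq2 gave Bmper an adjusted p of 0.00133. Of the other pathway genes, the number upregulated was 3 with DESeq2, 2 with library totals, without a filter and by the FDR alone, 0 with at least 10 counts in every sample, where Kcp, Gdf7 and Nog were not tested, and 1 to 3 with 1 artery left out. The number downregulated was 5 with DESeq2 and 2 to 8 with 1 artery left out, the 8 without control artery 4. Directions turned for genes that were never called. Bmp2 ranged from -0.76 to 0.080 with 1 artery left out. Nog was at 0.051 with library totals and at -0.35 to 0.053 with 1 artery left out. Id1 was at 0.013 with upper-quartile factors, at 0.13 with library totals and at -0.34 to 0.10 with 1 artery left out. Acvrl1 was at 0.098 with library totals and at -0.31 to 0.0065 with 1 artery left out. Tcf12 was at 0.069 with upper-quartile factors, 0.18 with library totals, 0.034 with at least 10 counts, 0.011 with the replicate block and -0.13 to 0.069 with 1 artery left out. Library totals moved the median of all genes by 0.18. The cause of these shifts was not tested.

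Over all genes, the replicate block called 953 up and 234 down and DESeq2 called 1601 and 549. Labels share replicate numbers between the groups but do not state that a number marks an animal. Deviations of same-numbered arteries correlated at 0.301, 0.450, -0.520 and -0.416 for numbers 1 to 4. The negative values involve injured artery 3 and control artery 4, which had the most sympathetic neuron markers in their groups. The part of these markers was not tested, so the correlations cannot decide on a pairing. The numbers were not taken as pairs, and the main test ignores a possible pairing with the self-controls. With the replicate block Fstl3 was not called (adjusted p = 0.0772) and Id4 was (adjusted p = 0.0430), both by edgeR. With 4 arteries a group and at most 20 counts of Nog per library, small changes of rare transcripts were not detectable.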

Other observations

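Hjv, a BMP co-receptor known from skeletal muscle and liver and listed under its synonym Hfe2, had 0, 0, 1 and 0 counts in control arteries 1 to 4 and 33, 5, 16 and 41 counts in injured arteries 1 to 4. It was not tested by edgeR, and DESeq2 called it (adjusted p = 5.48e-05). The skeletal muscle marker sum was 764, 438, 304 and 1100 CPM in the same injured arteries. Msx2, a homeobox target of BMP signalling, had 35, 11, 16 and 3 counts in control arteries 1 to 4 and 4, 0, 5 and 3 counts after injury. Sostdc1, which encodes an antagonist of BMP and Wnt ligands, was at 1.51, 0.164, 4.30 and 62.7 CPM in control arteries 1 to 4 and at 28.8, 3.77, 107 and 13.1 CPM in injured arteries 1 to 4. Control artery 4 and injured artery 3 had the most of it in their groups, and these libraries also had the most of the sympathetic neuron markers. These 3 genes are named after their values were seen.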
